A study of Mus musculus with 16 samples.

Results

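The FOXO genes described here are 10 genes of the 18138 on the array. Foxo1 and Foxo3 encode FOXO transcription factors, and Pik3ip1, Hbp1, Ccng2, Irs2, Cdkn1b, Sesn1, Sesn3 and Rbl2 are known FOXO targets that act in growth signalling or on the cell cycle. They were chosen by gene symbol with earlier results of these data known, as were the related gene lists below. Counts of them set against all tested genes are therefore not independent of the data. Each of the 10 had 1 entry on the array. The entry for Rbl2, unlike the others, does not come from RefSeq and was matched by its symbol alone. Expression was measured in D10 T cells, a fast-growing mouse Th2 line derived from a single clone and kept in medium with IL-2. Control cells received no inhibitor, and the other cells were given 10 µM Akti1/2, an allosteric inhibitor of Akt1 and Akt2, for 1 h. The labels' treatment protocol calls the control cells untreated, while the study's text also speaks of solvent, so what the controls received during that hour is not settled. Both were then stimulated with biotinylated antibodies to CD3 and CD28 crosslinked by streptavidin and sampled at 0, 2, 6 and 12 h, so that the 0 h samples were never stimulated. Each of the 8 groups had 2 arrays. The 16 arrays lay on 2 chips that each held 1 array of every group. The labels do not say whether the duplicates were separate cultures, so the p-values measure only the spread between these samples, which may be technical.

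FOXO proteins are forkhead transcription factors at the end of the PI3K pathway. Akt phosphorylates them, and the phosphorylated proteins leave the nucleus and stop activating their targets. In resting lymphocytes nuclear FOXO factors support quiescence, the reversible state in which a cell neither grows nor divides, and signals from the T cell receptor and CD28 activate Akt. The genes can be read in terms of that circuit. Pik3ip1 encodes a transmembrane inhibitor of PI3K, and Irs2 an adaptor between insulin-type receptors and PI3K. Hbp1 (a transcriptional repressor), Ccng2 (an unconventional cyclin), Cdkn1b (the CDK inhibitor p27) and Rbl2 (the pocket protein p130) slow the cell cycle. Sesn1 and Sesn3 encode sestrins, which restrain mTORC1 under stress.

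Of these genes, 3 had a window upstream of a transcript start that held a FOXO-type motif, and these windows are shown because 2 of them belong to Hbp1 and Irs2, on which the results below turn. The first motif searched was GTAAACA, which reads TGTTTAC on the other strand and is the forkhead core that FOXO factors bind. The other was CAAAACA, which reads TGTTTTG on the other strand and occurs in insulin-responsive promoters. Each of the 3 windows held 1 match, so no matches overlapped. All 10 genes matched RefSeq windows (build GRCm38.p6, 11 windows), and the 250 bases before the start were read. GTAAACA lay in 3.17% and CAAAACA in 5.56% of the 32851 windows of that length, so a match is common and describes letters only. Capitals mark the motif and the bases run 5′ to 3′ on the gene's strand. The Hbp1 window is chr12:31950246-31950495 on the minus strand, with GTAAACA 149 to 143 bases before the start. The Irs2 window is chr8:11008930-11009179 on the minus strand, with TGTTTTG 37 to 31 bases before the start. The Ccng2 window is chr5:93267323-93267572 on the plus strand, with CAAAACA 16 to 10 bases before the start.
Hbp1: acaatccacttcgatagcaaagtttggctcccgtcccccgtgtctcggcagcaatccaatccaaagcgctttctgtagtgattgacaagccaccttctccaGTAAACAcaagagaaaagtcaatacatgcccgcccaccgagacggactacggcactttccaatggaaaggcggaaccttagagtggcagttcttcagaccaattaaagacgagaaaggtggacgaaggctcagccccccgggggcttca
Irs2: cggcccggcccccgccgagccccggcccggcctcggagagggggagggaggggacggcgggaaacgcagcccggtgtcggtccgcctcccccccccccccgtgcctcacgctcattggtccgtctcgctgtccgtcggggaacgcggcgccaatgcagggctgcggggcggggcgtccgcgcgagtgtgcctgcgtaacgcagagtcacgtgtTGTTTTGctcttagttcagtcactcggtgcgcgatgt
Ccng2: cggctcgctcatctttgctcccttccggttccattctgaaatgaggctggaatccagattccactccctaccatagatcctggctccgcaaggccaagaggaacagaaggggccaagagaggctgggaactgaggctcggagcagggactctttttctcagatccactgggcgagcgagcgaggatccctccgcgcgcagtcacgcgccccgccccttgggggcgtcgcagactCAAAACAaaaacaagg

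The window of Pik3ip1, the other gene with a large response, is chr11:3330481-3330730 on the plus strand and held neither set of letters. The Hbp1 and Pik3ip1 windows both lie inside the annotated span of their gene, since another transcript starts further upstream, and those starts were not searched.
Pik3ip1: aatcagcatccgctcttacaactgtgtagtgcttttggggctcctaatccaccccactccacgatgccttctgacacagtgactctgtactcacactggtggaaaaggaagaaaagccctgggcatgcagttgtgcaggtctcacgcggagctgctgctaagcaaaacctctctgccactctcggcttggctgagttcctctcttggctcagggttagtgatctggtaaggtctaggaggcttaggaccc

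Above background means that a share under 0.01 of the 798 negative-control probes on the same array were as bright as the gene, and 6288 to 6907 genes per array met this. The median intensity of an array was 119.4 to 148.6 and that of its negative controls 110.1 to 137.5. Foxo1, Hbp1, Irs2 and Sesn1 were above background on all 16 arrays, Sesn3 on 12, Pik3ip1 on 9, Ccng2 on 6 and Rbl2 on 2. Foxo3 (intensity 109.5 to 150.7) and Cdkn1b (117.5 to 147.3) were not well above background on any array and were not tested. The other 8 genes were among the 7395 tested. Rbl2 passed this filter only through the 2 arrays of Akti1/2-treated cells at 2 h, and Foxo3 and Cdkn1b are not covered, so that counts over the 8 tested genes do not describe all 10.

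The cells had the markers of the labelled type. The Th2 genes Gata3, Il4, Il5, Il13 and Il10 and the T cell genes Cd3e, Cd3d, Cd3g, Cd28 and Lck were above background on all 16 arrays, and Cd4 on 13, while Thy1 was so on none. No marker of CD8 T cells, NK cells, macrophages, dendritic cells or fibroblasts was above background on any array, and of the B cell markers only Ms4a1 was, on 1 array. The transcripts of Akt1 and Akt2 themselves were not well above background on any array.

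**Figure D1:**
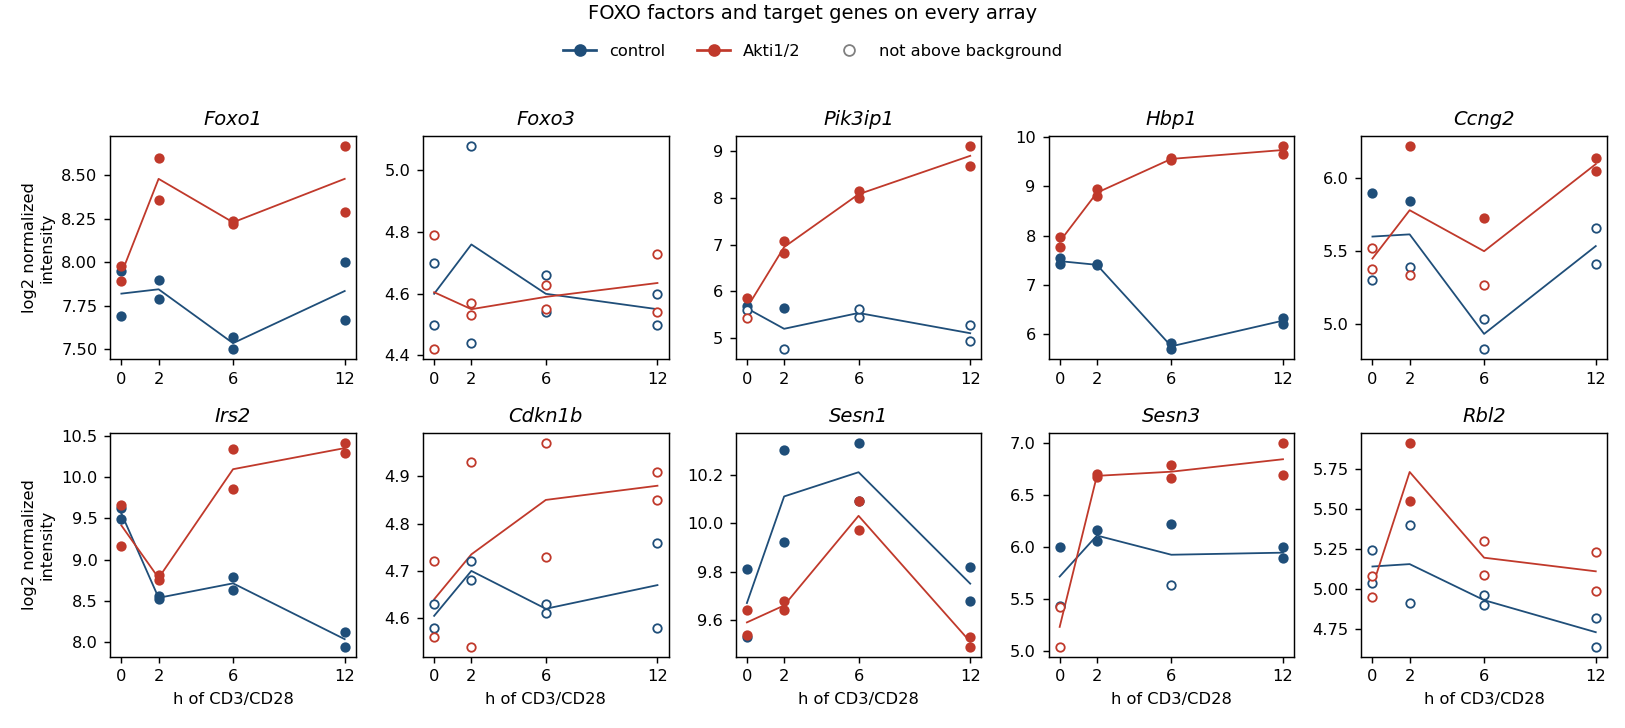
Normalized log2 intensity (y axis, its range set for each gene) of the 10 genes on every array against hours of CD3/CD28 stimulation (x axis), in control (blue) and Akti1/2-treated cells (red). Points are single arrays, lines join the means of 2 arrays, and open points are not above background. The control and treated points of Hbp1 are apart at every time and those of Pik3ip1 and Irs2 from 2 h on, while Foxo3 and Cdkn1b are open on every array.

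Without the inhibitor, Hbp1 and Irs2 fell after stimulation, and with it Hbp1, Pik3ip1, Sesn3 and, after a fall at 2 h, Irs2 rose. In control cells the genes called against 0 h were Irs2 at 2 h (1 of the 8 tested, where 10.3% of all tested genes were called), Hbp1, Irs2 and Sesn1 at 6 h (3 of the 8, background 27.6%) and Hbp1 and Irs2 at 12 h (2 of the 8, background 27.8%). In Akti1/2-treated cells 6 were called at 2 h (background 38.7%), all of the 8 but Ccng2 and Sesn1, or 5 of 7 without Rbl2. The call took in Pik3ip1, Hbp1, Irs2, Sesn1 and Sesn3 at 6 h (5 of the 8, background 33.3%) and Foxo1 in place of Sesn1 at 12 h (5 of the 8, background 44.5%). The 1 at 2 h in control cells was 2 without either control array of that time, the 6 at 2 h with Akti1/2 was 3 without the first Akti1/2 array of that time, and the 5 at 6 h was 3 without the first at 0 h. Before stimulation limma called none of the 8 tested genes as different with Akti1/2 (background 0.0541% of tested genes called), although 2 of them had an unadjusted p under 0.05, against 381 of the 7395 genes. These were Hbp1, which was 0.39 higher with Akti1/2 on the log2 scale (SE 0.11, adjusted p = 0.658), and Sesn3 (adjusted p = 0.957). Sesn3 was not well above background with Akti1/2 at 0 h, and set to the dimmest detectable signal there it was 1.05-fold lower. At 2 h 5 of the 8 were called, where 28.4% of all tested genes were. Foxo1, Pik3ip1, Hbp1 and Rbl2 were higher with Akti1/2 and Sesn1 was lower. Rbl2 was tested only because it was above background on the Akti1/2-treated arrays of that time, and without it 4 of 7 were called. The count of 5 was 2 without the first array of Akti1/2-treated cells at 2 h and 3 without the second control array of that time. At 6 h 5 of the 8 were called (background 37.6%, and 18.8% for higher), namely Foxo1, Pik3ip1, Hbp1, Irs2 and Sesn3, all higher. At 12 h 5 of the 8 were again higher, by name Foxo1, Pik3ip1, Hbp1, Irs2 and Sesn3 (background 49.0%, and 24.2% for higher). The median difference of the 8 genes was 0.57, 0.74 and 0.77 at 2, 6 and 12 h, beside -0.01, -0.01 and -0.02 over all tested genes. Since the genes were chosen with earlier results known, neither these medians nor the counts are independent of the data. Of the genes above background on all arrays, Foxo1 and Hbp1 were called higher and Sesn1 lower at 2 h. At 6 and 12 h Foxo1, Hbp1 and Irs2 were called higher. Each array read the RNA of a whole culture, so a change in the share of cells that express a gene and a change in RNA per cell cannot be told apart.

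The difference between the changes from 0 h with and without Akti1/2, the interaction, was called for 2 of the 8 genes at 2 h (Pik3ip1 and Hbp1, background 8.40%). That count was 1 in the 3 cases without the first control array at 0 h, the second Akti1/2 array at 0 h or the second at 2 h. At 6 h it was called for 4 (Pik3ip1, Hbp1, Irs2 and Sesn3), all higher with Akti1/2, where 19.5% of tested genes were called and 10.3% higher. At 12 h these 4 genes were called as well, with a background of 32.5% called and 16.3% higher. The interaction, the time courses and the differences at 0 h draw on the same 0 h arrays and are not independent of each other. Over the 8 genes in 13 comparisons there were 47 calls. All 47 had the same sign on both chips and all 47 were made with the chip as a block. The block also added calls of Rbl2, a gene above background only in Akti1/2-treated cells at 2 h. These were the change at 12 h in control cells, the difference at 12 h and the interaction at 2 h (limma adjusted p = 0.0307, 0.0279 and 0.0358).

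**Figure D2:**
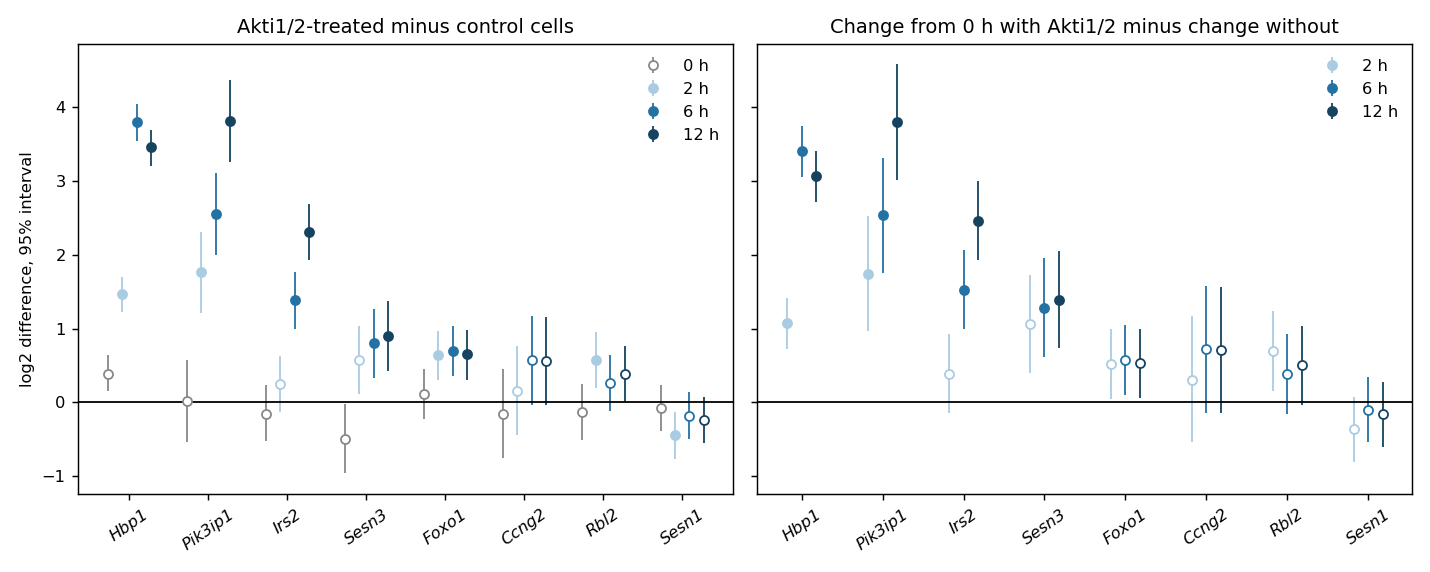
Log2 differences (y axis) with 95% intervals for the 8 tested genes (x axis), as Akti1/2-treated minus control cells at each time (left) and as the interaction at each time after 0 h (right). Filled points have an adjusted p under 0.05 and open points do not. The largest difference of Hbp1 is 3.79 at 6 h, and the intervals of Ccng2 include 0 at every time. Points are fitted values, also where a group was not above background (Pik3ip1 in control cells at 6 and 12 h and Sesn3 with Akti1/2 at 0 h among them). For those the text gives bounds, or values with that group set to the dimmest detectable signal.

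Foxo1 was the FOXO factor with a measurable transcript. Its normalized log2 intensities in control cells were 7.95 and 7.69 at 0 h, 7.90 and 7.79 at 2 h, 7.57 and 7.50 at 6 h, then 8.00 and 7.67 at 12 h. With Akti1/2 they were 7.89 and 7.98 at 0 h, 8.60 and 8.36 at 2 h, 8.24 and 8.22 at 6 h, then 8.67 and 8.29 at 12 h. All 6 stimulated Akti1/2-treated arrays were above all 8 control arrays, while the unstimulated arrays of both kinds overlapped. On the unnormalized scale the groups at 2 h overlapped, with 377.4 and 324.0 in control cells beside 430.6 and 346.9 with Akti1/2. The difference was 0.64, 0.69 and 0.65 at 2, 6 and 12 h (SE 0.15, limma adjusted p = 0.00995, 0.0039 and 0.00416), or 1.55, 1.62 and 1.56 times the control level. The call was lost without the second control array or the first Akti1/2 array at 2 h (adjusted p = 0.0584 and 0.0702), and without the second control array or the first Akti1/2 array at 12 h (0.0525 and 0.0565). The rise of Foxo1 from 0 h with Akti1/2 was 0.54 at 2 h and 0.54 at 12 h (SE 0.15, adjusted p = 0.0159 and 0.0127), and the value at 6 h was 0.29 (adjusted p = 0.174). Without the first Akti1/2 array at 0 h these rises had adjusted p = 0.0824 and 0.073, without the first at 2 h 0.107 and without the first at 12 h 0.139. Its interaction was 0.52, 0.58 and 0.53 (SE 0.22) with adjusted p = 0.153, 0.0824 and 0.0833, and none passed the threshold. The interaction was called at 6 and 12 h with the replicate number as a block (adjusted p = 0.0458 and 0.0439) and with arrays scaled to the same mean (0.0277 and 0.0359).

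Of the genes of PI3K signalling, Pik3ip1 was the one that went from near background to a bright signal. In control cells its log2 intensities were 5.67 and 5.59 at 0 h, 5.63 and 4.75 at 2 h, 5.45 and 5.61 at 6 h, then 4.92 and 5.27 at 12 h, and it was above background on 2 of these 8 arrays. With Akti1/2 they were 5.86 and 5.42 at 0 h, 6.81 and 7.08 at 2 h, 8.16 and 8.00 at 6 h, then 9.12 and 8.69 at 12 h. The 3 stimulated Akti1/2-treated groups stood above all others and did not overlap each other, in the order 12, 6 and 2 h, while the remaining 5 groups formed a series of overlapping neighbours. Unnormalized intensities at 12 h were 145.5 and 159.9 in control cells beside 771.7 and 498.4 with Akti1/2. Pik3ip1 rose from 0 h with Akti1/2 by 1.30, 2.43 and 3.26 (SE 0.25, adjusted p = 0.00209, 2.03e-05 and 9.76e-07). The difference from control cells at 2 h was 1.76 (SE 0.25, adjusted p = 5.31e-04). At 6 and 12 h neither control array was well above background, and the level with Akti1/2 was at least 5.26-fold and at least 9.15-fold higher than the dimmest detectable signal in control cells (adjusted p = 1.48e-05 and 3.3e-07). The interaction at 2 h was 1.74 (SE 0.36, adjusted p = 0.0141), with 1 of 2 arrays above background in each group at 0 h and in control cells at 2 h. With the control arrays at 6 and 12 h set to the dimmest detectable signal, it was 2.38 and 3.18 on the log2 scale (adjusted p of the fitted values = 6.8e-04 and 1.88e-05). These 2 values are not strict bounds, because the undetected control array at 0 h kept its value. The sizes and bounds of Pik3ip1 depended on background correction. Without it the level with Akti1/2 was 1.59, 2.39 and 4.03 times that of control cells at 2, 6 and 12 h, and the interaction was 0.67, 1.25 and 2.0. The interaction at 2 h was not called without the first control array at 0 h, the second Akti1/2 array at 0 h or the second at 2 h. Its value was then 1.7, 1.52 and 1.61.

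Irs2 had a time course of its own, with a fall from 0 h in both kinds of cell at 2 h and, at 6 and 12 h, levels below 0 h in control cells and above it with Akti1/2. In control cells the log2 intensities were 9.63 and 9.49 at 0 h, 8.56 and 8.52 at 2 h, 8.64 and 8.79 at 6 h, then 8.13 and 7.95 at 12 h. With Akti1/2 they were 9.17 and 9.66 at 0 h, 8.75 and 8.81 at 2 h, 10.34 and 9.85 at 6 h, then 10.29 and 10.41 at 12 h. The Akti1/2-treated cells at 12 and 6 h were highest and overlapped each other, and both groups at 0 h came next and overlapped. Those at 2 h overlapped control cells at 6 h, followed without overlap by control cells at 2 h and then at 12 h. Irs2 fell in control cells, with changes of -1.02, -0.85 and -1.52 at 2, 6 and 12 h (SE 0.17, adjusted p = 0.00305, 0.00355 and 5.48e-05). With Akti1/2 it fell by 0.63 at 2 h (adjusted p = 0.0136) and then rose by 0.68 and 0.94 over the 0 h level at 6 and 12 h (adjusted p = 0.0102 and 9.08e-04). The fall at 2 h was not called without the second Akti1/2 array at 0 h or the first at 2 h (adjusted p = 0.147 and 0.0597). The rise at 6 h was not called without the first array of Akti1/2-treated cells at 0 h or at 6 h (adjusted p = 0.115 and 0.0895), nor in a fit of only the groups compared (0.0926). Between the 2 kinds of cell the difference was 0.25 at 2 h (SE 0.17, adjusted p = 0.316), 1.38 at 6 h (8.27e-05) and 2.31 at 12 h (8.22e-07), the last a 4.97-fold higher level. The interaction was 0.39 at 2 h (SE 0.25, adjusted p = 0.348), 1.52 at 6 h (0.00135) and 2.46 at 12 h (2.89e-05).

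Hbp1, the first of the cell cycle genes, was the only one of the 8 tested genes whose groups were all apart from their neighbours. Its product is a high mobility group box repressor that delays entry into S phase. Log2 intensities in control cells were 7.54 and 7.43 at 0 h, 7.42 and 7.40 at 2 h, 5.70 and 5.82 at 6 h, then 6.34 and 6.22 at 12 h. With Akti1/2 they were 7.78 and 7.98 at 0 h, 8.94 and 8.80 at 2 h, 9.54 and 9.57 at 6 h, then 9.82 and 9.65 at 12 h. No neighbouring groups overlapped in the order Akti1/2-treated 12, 6, 2 and 0 h, then control 0, 2, 12 and 6 h. Unnormalized intensities at 6 h were 175.6 and 168.3 in control cells beside 772.4 and 947.0 with Akti1/2. In control cells Hbp1 differed from 0 h by -0.08 at 2 h (SE 0.11, adjusted p = 0.715) and fell at 6 h (-1.72) and at 12 h (-1.20; adjusted p = 4.03e-07 and 9.55e-06). With Akti1/2 it rose by 0.99, 1.67 and 1.85 (adjusted p = 6.02e-05, 5.88e-07 and 1.2e-07), so that the same stimulation was followed by opposite changes. The level with Akti1/2 was 2.75, 13.8 and 10.9 times that of control cells at 2, 6 and 12 h, as log2 differences 1.46, 3.79 and 3.45 (adjusted p = 6.89e-06, 6.9e-10 and 1.03e-09). At 6 h the control arrays were only just above background (shares of 0.00877 and 0.00752 of the negative-control probes were as bright, against the limit of 0.01), and the size of the fold depended on background correction. Without that correction the level with Akti1/2 was 5.10 times that of control cells at 6 h and 4.99 times at 12 h, the interaction was 2.10 and 2.07, and the changes in control cells were -0.80 and -0.61. The interaction was 1.07, 3.40 and 3.06 (SE 0.16, adjusted p = 0.00368, 1.69e-07 and 2.97e-07). Every Hbp1 call was kept under each alternative processing run with limma.

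The other cell cycle genes were dim. Ccng2 ranged from 4.83 to 6.22 on the log2 scale and was above background on both arrays of a group only in Akti1/2-treated cells at 12 h, where it read 6.05 and 6.14 beside 5.66 and 5.41 in control cells. These 2 groups did not overlap, but neither the difference at 12 h (at least 1.3-fold higher with Akti1/2, adjusted p = 0.115) nor that at 6 h (adjusted p = 0.128) passed the threshold. In a fit of only the groups compared, the difference of Ccng2 at 12 h was called (adjusted p = 0.013). The interaction of Ccng2 did not pass it either (adjusted p = 0.221 at 6 h and 0.189 at 12 h). Rbl2 read 5.91 and 5.55 in Akti1/2-treated cells at 2 h and 5.40 and 4.91 in control cells at that time, where it was not well above background. As bounds, it was at least 1.03-fold higher with Akti1/2 at 2 h (adjusted p = 0.0288) and at least 1.05-fold higher than in Akti1/2-treated cells at 0 h (adjusted p = 0.00757), both close to no difference. It entered the test only through the group in which it was bright, so neither p is free of that choice. The difference was not called without the filter (adjusted p = 0.0543), with quantile normalization alone (0.0967) or in a fit of only the groups compared (0.127). The difference was not called without the second control array or the first Akti1/2 array at 2 h (adjusted p = 0.23 and 0.186), nor the rise without that Akti1/2 array or the second at 0 h (0.0652 and 0.0524). Cdkn1b read 4.54 to 4.97 over all arrays, and neither an increase nor a decrease of the p27 transcript was measurable with this probe.

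The 2 sestrins differed from each other. Sesn3 read 6.00 and 5.43 at 0 h in control cells, 6.06 and 6.16 at 2 h, 6.22 and 5.63 at 6 h, then 6.00 and 5.89 at 12 h. With Akti1/2 it read 5.04 and 5.42 at 0 h, 6.67 and 6.70 at 2 h, 6.79 and 6.66 at 6 h, then 7.00 and 6.69 at 12 h. On this normalized scale all 6 stimulated Akti1/2-treated arrays lay above all control arrays, and the 3 groups overlapped each other. On the unnormalized scale the groups at 2 h overlapped, with 188 and 188.6 in control cells beside 187.2 and 194.5 with Akti1/2. The first control arrays at 0 and 6 h, 197.3 and 198.7, were brighter than both of the latter. At 0 h Sesn3 was not well above background with Akti1/2, so its rise is a bound, at least 2.04-fold at 2 h, 2.10-fold at 6 h and 2.29-fold at 12 h (adjusted p = 3.76e-04, 2.31e-04 and 7.47e-05). Without background correction the rise was 1.43, 1.45 and 1.52-fold. The difference from control cells was 0.57 at 2 h (SE 0.22, adjusted p = 0.0642), 0.80 at 6 h (0.0117) and 0.90 at 12 h (0.00408). Without background correction the level with Akti1/2 was 1.18, 1.25 and 1.3 times that of control cells at these times. The difference at 2 h was called with quantile normalization alone, with arrays scaled to the same mean and in a fit of only the groups compared (adjusted p = 0.0488, 0.0349 and 0.0376). At 6 h it was not called without the second control array or the first Akti1/2 array of that time (adjusted p = 0.13 and 0.059). The interaction of Sesn3 draws on the undetected Akti1/2-treated group at 0 h, which was set to the dimmest detectable signal. On the log2 scale it was then 0.64, 0.86 and 0.97 at 2, 6 and 12 h (adjusted p of the fitted values = 0.0507, 0.0113 and 0.00428). These are not strict bounds, because single undetected arrays of control cells at 0 and 6 h kept their values. They also rest on background correction, without which the interaction was 0.39, 0.47 and 0.53. At 2 h it was called with arrays scaled to the same mean (0.0312) or with the replicate block (0.0463). Without the first control array or the first Akti1/2 array at 0 h the adjusted p at 6 h was 0.052 and 0.0509.

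Sesn1 did not follow the other genes, and its changes were small. It read 9.81 and 9.53 at 0 h in control cells, 10.30 and 9.92 at 2 h, 10.09 and 10.33 at 6 h, then 9.68 and 9.82 at 12 h. With Akti1/2 it read 9.54 and 9.64 at 0 h, 9.68 and 9.64 at 2 h, 9.97 and 10.09 at 6 h, then 9.53 and 9.49 at 12 h. The 2 kinds of cell were apart at 2 and 12 h and overlapped at 0 h and met at 10.09 at 6 h. Sesn1 rose by 0.54 at 6 h in control cells (SE 0.14, adjusted p = 0.0142) and by 0.45 with Akti1/2 (adjusted p = 0.0301). The rise in control cells was not called without the second array at 0 h or at 6 h (adjusted p = 0.134 and 0.114), nor that with Akti1/2 without either array at 0 h or the second at 6 h (0.142, 0.0738 and 0.134). At 2 h it was lower with Akti1/2 (difference -0.44, adjusted p = 0.0363), a call lost without the first control array or either Akti1/2 array of that time (0.286, 0.0896 and 0.133). Without the filter, and in a fit of only the groups compared, neither this difference (adjusted p = 0.063 and 0.121) nor the rise at 6 h with Akti1/2 (0.0536 and 0.0747) was called. At 6 and 12 h the differences were -0.18 and -0.24 (adjusted p = 0.364 and 0.187), and the interaction at 2 h was -0.36 (SE 0.20, adjusted p = 0.286).

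Across the 8 group means the genes resembled each other to different degrees, which is a description of 8 points that come from the same arrays. Foxo1 and Hbp1 correlated at 0.91, Pik3ip1 and Hbp1 at 0.88, and Pik3ip1 with Irs2 and with Sesn3 at 0.80. Foxo1 also correlated at 0.83 with Pik3ip1 and at 0.82 with Ccng2, a gene mostly at background. Sesn1 correlated negatively with Ccng2 (-0.70), Foxo1 (-0.55) and Hbp1 (-0.44). Among the other tested genes, the profile nearest that of Hbp1 was Mfsd11 (0.988), followed by Stx5a (0.983) and Ing3 (0.982). Nearest Pik3ip1 were Klhdc1 (0.996), Soat2 (0.988) and Pdcd2 (0.987), and nearest Irs2 were Nrd1 (0.978), Agpat9 (0.976) and 2410001C21Rik (0.972). Nearest Foxo1 were Chic2 (0.987), Sh3yl1 (0.976) and Zfp330 (0.975), nearest Sesn3 BC038822 (0.958), Ccdc47 (0.95) and Fam116b (0.948), and nearest Sesn1 Melk (0.965), Armc8 (0.94) and Nfkbib (0.923). Ccng2 was most like Plce1 (0.952), Hmgb2l1 (0.937) and LOC100048187 (0.916), and Rbl2 most like Ctr9 (0.988), Diap3 (0.983) and BC065397 (0.972), profiles that for these 2 genes lie mostly at background. Soat2 spanned 2.52 on the log2 scale and Stx5a 2.28, beside 3.97 for Hbp1, while Klhdc1 spanned 0.75.

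**Figure D3:**
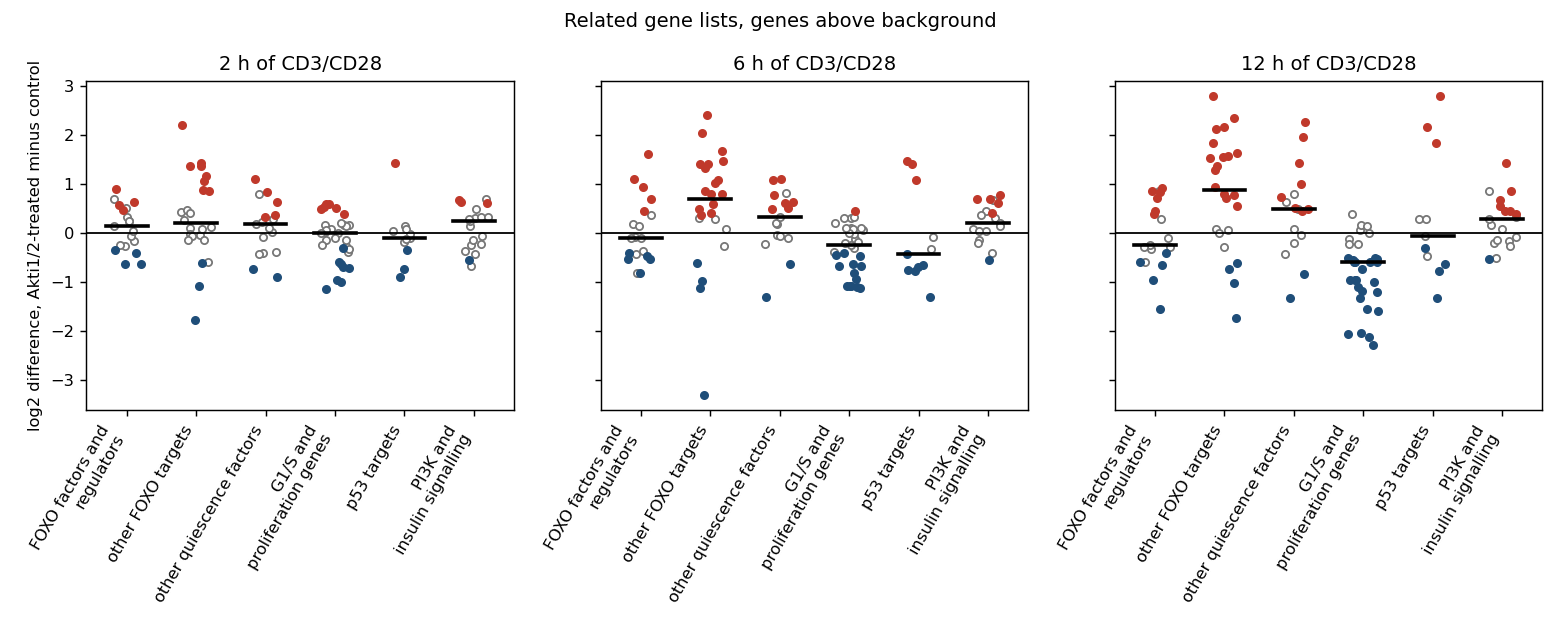
Log2 differences of Akti1/2-treated minus control cells (y axis) at 2, 6 and 12 h for the tested genes of 6 related lists (x axis), without the 10 FOXO genes. Each point is a gene, red where called higher, blue where called lower and open where not called, and bars are medians. The other FOXO targets have medians of 0.19, 0.69 and 0.87, and the G1/S and proliferation genes 0, -0.26 and -0.61.

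Other genes that FOXO factors are known to activate were read as a list of 43, of which 42 were on the array and 24 tested. At 2 h 8 of them were higher with Akti1/2 and 3 lower (background 13.5% higher and 14.9% lower). At 6 h the numbers were 16 and 4, and at 12 h again 16 and 4, against 18.8% and 24.2% of all tested genes higher and 18.8% and 24.8% lower. The share lower was thus not above the background. Their median differences were 0.19, 0.69 and 0.87. The interaction was higher for 6, 11 and 15 of them, against 4.23%, 10.3% and 16.3% of all tested genes, and lower for 2, 2 and 4, against 4.16%, 9.24% and 16.2%. The shares lower at 6 and 12 h, 8.3% and 16.7%, were near the background. The 6 became 2 without the first control array at 0 h, and 3 without the first Akti1/2 array at 0 h or the second at 2 h. The 11 became 7 among genes detected on all 16 arrays. The 4 lower at 12 h became 2 without any single array of 0 or 12 h other than the first control array at 0 h and the first Akti1/2 array at 12 h. Klf6, Ctla4, Cebpb and, with no letter, Gadd45 were named in the study of these samples as known or suspected FOXO targets with enhanced expression under Akti1/2. The choice of these genes was thus not independent of the samples. Most other list genes named singly below were picked for a large interaction at 6 h, as Klf6, Cebpb and Gadd45g also were. Their sizes and p-values are not free of that choice and are not typical of their lists. Of the naive T cell genes of this list, Klf2, Il7r, S1pr1, Tcf7 and Lef1 were not well above background on any array, nor was Gadd45a. The homing receptor gene Ccr7 was above background on 14 arrays and was 1.02 and 1.37 higher with Akti1/2 at 6 and 12 h (SE 0.17, adjusted p = 5.43e-04 and 3.5e-05).

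**Figure D4:**
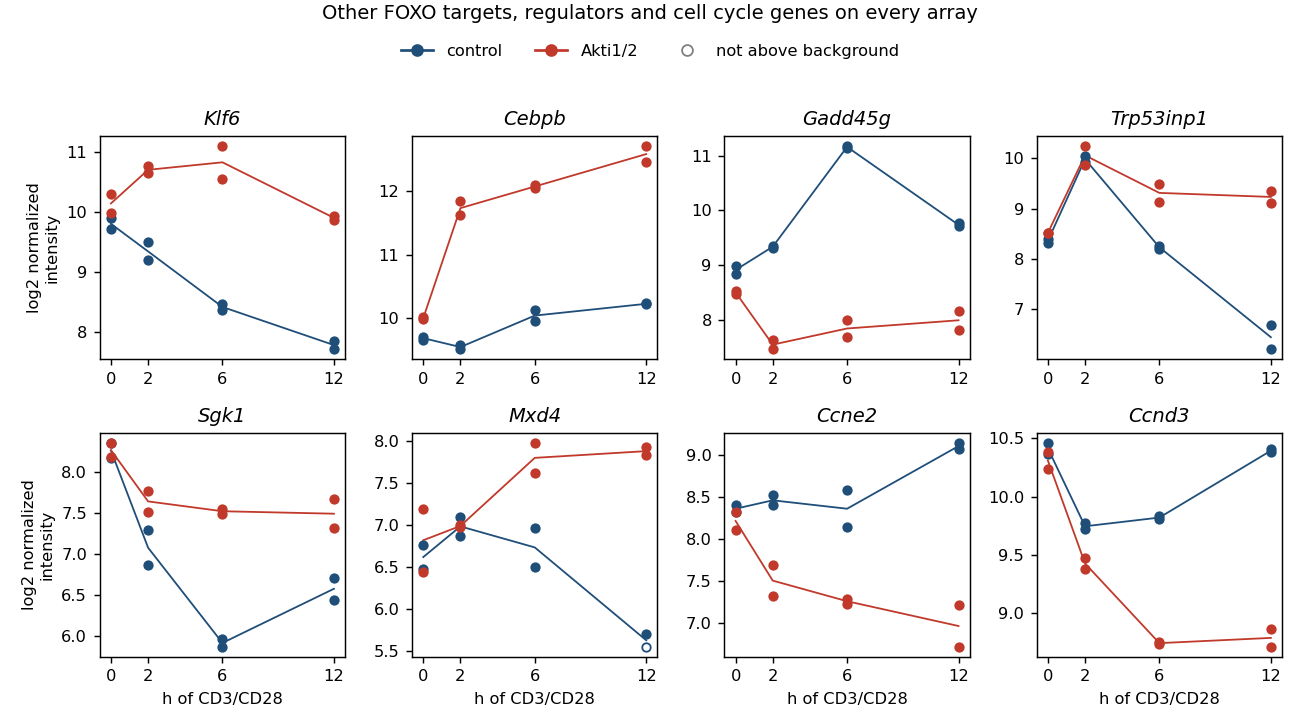
Normalized log2 intensity (y axis, its range set for each gene) of 8 genes from the related lists on every array against hours of CD3/CD28 stimulation (x axis), in control (blue) and Akti1/2-treated cells (red). Points are single arrays, lines join means and open points are not above background. Klf6, Cebpb, Trp53inp1, Sgk1 and Mxd4 end higher with Akti1/2 and Gadd45g, Ccne2 and Ccnd3 lower.

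Klf6, a zinc-finger growth suppressor, read 8.47 and 8.38 at 6 h in control cells and 10.56 and 11.11 with Akti1/2, so the groups were apart. It was 1.36, 2.41 and 2.12 higher with Akti1/2 at 2, 6 and 12 h (SE 0.17, adjusted p = 2.4e-04, 1.58e-06 and 1.52e-06), with an interaction at 6 h of 2.07 (SE 0.25, adjusted p = 2.49e-04). In control cells Klf6 fell at 6 h (-1.38) and at 12 h (-2.02; adjusted p = 1.16e-04 and 5.18e-06), as Hbp1 did. Cebpb, a bZIP transcription factor, was 2.19, 2.03 and 2.35 higher (SE 0.12, adjusted p = 2.45e-07, 2.6e-07 and 4.45e-08). The inhibitory receptor gene Ctla4 was 1.05, 1.31 and 1.55 higher (SE 0.13, adjusted p = 1.83e-04, 1.35e-05 and 1.54e-06), and Eif4ebp1, the translation repressor 4E-BP, 0.87, 1.67 and 1.52 (SE 0.12, adjusted p = 3.3e-04, 1.2e-06 and 8.81e-07).

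Gadd45g, a stress-response gene, ran the other way. It read 11.14 and 11.18 at 6 h in control cells and 8.00 and 7.68 with Akti1/2, a difference of -3.32 (SE 0.14, adjusted p = 9.15e-09), and the interaction at 6 h was -2.91 (SE 0.19, adjusted p = 3.18e-06). Gadd45b differed by -1.10 and -1.14 at 2 and 6 h (SE 0.21, adjusted p = 0.00294 and 0.00129) and by 0.07 at 12 h (adjusted p = 0.809). The study, which scored genes by J5, reports enhanced Gadd45 expression with Akti1/2 and does not say which family member. The values here differ from that, as neither Gadd45g nor Gadd45b was called higher and Gadd45a was not well above background.

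Some targets are shared with p53. Of the p53 target list (15 genes, 11 tested), 6 h of stimulation left 3 higher and 6 lower with Akti1/2 (background 18.8% in each direction), and 12 h left 3 and 4 (background 24.2% and 24.8%), so that the share higher at 12 h was near the background. The 4 became 2 without the second control array or the first Akti1/2 array at 12 h. The higher ones, Bbc3, Sesn2 and Trp53inp1 at both times, also stand in the FOXO list. Bbc3, the pro-apoptotic PUMA, was 1.47 and 2.15 higher at 6 and 12 h (SE 0.11, adjusted p = 2.37e-06 and 6.78e-08). Trp53inp1 was 1.08 and 2.79 higher (SE 0.18, adjusted p = 5.45e-04 and 2.39e-07), after reading 9.93 and 10.04 in control cells at 2 h beside 9.87 and 10.25 with Akti1/2. Sesn2, a sestrin gene like Sesn1 and Sesn3, was at least 1.94-fold higher at 6 h and at least 2.21-fold at 12 h, because it was not well above background in control cells then (adjusted p = 3.5e-04 and 2.8e-05). Cdkn1a, the p53 target p21, differed by -1.32 and -1.34 (SE 0.16, adjusted p = 6.8e-05 and 3.1e-05).

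Other quiescence factors (27 genes, 17 tested) included 7 genes called higher and 2 called lower at 6 h under Akti1/2, then 8 and 2 at 12 h, with medians of 0.32 and 0.48 (background 18.8% in each direction at 6 h, and 24.2% and 24.8% at 12 h). The interaction was called for 11.8% of the tested genes of this list at 6 h and 35.3% at 12 h, below and near the 19.5% and 32.5% of all tested genes. With arrays scaled to the same mean, the 1 gene with a higher interaction at 6 h became 6 and the 4 at 12 h became 8. Mxd4, a MAX partner that opposes Myc, was 1.07 higher at 6 h and 2.25 at 12 h (SE 0.23, adjusted p = 0.00287 and 6.53e-06), and its interaction was called at 12 h (2.05, SE 0.32, adjusted p = 4.86e-04) but not at 6 h (0.87, adjusted p = 0.0747). With quantile normalization alone or arrays scaled to the same mean it was called at 6 h too (adjusted p = 0.0371 and 0.0291). Tob1, an anti-proliferative gene, differed by -0.42 at 2 h (SE 0.16, adjusted p = 0.0705) and was 1.10 and 0.48 higher at 6 and 12 h (adjusted p = 2.5e-04 and 0.0278). Cdkn1a and Cdkn2d, both CDK inhibitors, were the lower members, with -0.85 for Cdkn2d at 12 h (SE 0.20, adjusted p = 0.0034).

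Genes of G1/S and proliferation, on which the cell cycle brakes act, were more often called lower than higher with Akti1/2 at the later times, although at 6 h most of them were not called. Of 37 genes 31 were tested, and under Akti1/2 the calls were 6 higher beside 8 lower at 2 h (background 13.5% and 14.9%) and 1 beside 13 at 6 h (background 18.8% in each direction). The 6 became 2 without either control array and 1 without the second Akti1/2 array at 2 h. At 12 h 23 were lower, where 24.8% of all tested genes were lower. The interaction was lower for 8 at 6 h and for 18 at 12 h, where the backgrounds were 9.24% and 16.2%. With arrays scaled to the same mean, which moved the median interaction of all genes at 6 h to 0.119, the count at 6 h was 3. It was 4 without the first control or the second Akti1/2 array at 0 h, and 5 without the second control array at 6 h. Ccne2 (cyclin E2) read 9.14 and 9.07 at 12 h in control cells and 7.21 and 6.72 with Akti1/2, a difference of -2.14 (SE 0.18, adjusted p = 2.02e-06). Ccnd3 (cyclin D3) differed by -1.08 and -1.61 at 6 and 12 h (SE 0.10, adjusted p = 9.16e-06 and 1.96e-07), and Myc by -1.14 at 6 h (SE 0.18, adjusted p = 4.59e-04). Cdk6 at 6 h was at least 1.3-fold lower with Akti1/2, where it was not well above background (adjusted p = 0.0023).

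The genes that act on FOXO proteins were divided. Their list of 26 also held the FOXO factors Foxo4 and Foxo6, which were not tested, and 19 genes of the list were. Under Akti1/2 5 were called in each direction at 6 h, then 6 higher beside 5 lower at 12 h. The medians were -0.10 and -0.25. The 5 lower at 6 h became 1 in a fit of only the groups compared. The background was 18.8% in each direction at 6 h, and 24.2% and 24.8% at 12 h, which the shares of the list at 12 h were near. Sgk1, a kinase that phosphorylates FOXO factors as Akt does, read 8.17 and 8.35 at 0 h in control cells, 5.96 and 5.87 at 6 h, beside 7.55 and 7.49 at 6 h with Akti1/2. At 6 h it fell by 2.35 in control cells (SE 0.17, adjusted p = 1.14e-06), fell by 0.75 with Akti1/2 (adjusted p = 0.0054), and the interaction at 6 h was 1.60 (SE 0.24, adjusted p = 9.73e-04). The deacetylase gene Sirt1 was 0.89, 1.10 and 0.82 higher with Akti1/2 (SE 0.11, adjusted p = 2.3e-04, 2e-05 and 8.3e-05), and the acetyltransferase gene Ep300 0.93 higher at 6 h (SE 0.18, adjusted p = 0.0014).

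In PI3K and insulin signalling beyond Pik3ip1 and Irs2 (29 genes, 19 tested), 5 genes were called higher and 1 lower under Akti1/2 at 6 h, then 7 and 1 at 12 h, with medians of 0.19 and 0.28. The shares higher, 26.3% and 36.8%, stood against 18.8% and 24.2% of all tested genes, and the share lower, 5.3% at both times, against 18.8% and 24.8%. The 5 became 2 without the second control or the second Akti1/2 array at 6 h, and the 7 became 4 without either control array or the first Akti1/2 array at 12 h. Pik3cg, the gamma catalytic subunit, was 0.61 higher at 6 h (SE 0.16, adjusted p = 0.0098) and differed by 0.30 at 2 h and -0.17 at 12 h (adjusted p = 0.183 and 0.42). The call was lost without the second control or the second Akti1/2 array at 6 h (adjusted p = 0.0568 and 0.0808). Pdpk1, the kinase PDK1 that phosphorylates Akt, was 0.38 higher at 12 h (SE 0.14, adjusted p = 0.048), a call lost when most single arrays were left out, without the filter (0.088) and with the replicate block (0.0563). Tsc1, a brake on mTORC1, was 1.43 higher at 12 h (SE 0.19, adjusted p = 6.3e-05).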

How the data were processed

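The authors hybridized labelled nucleic acid (biotinylated cRNA per the labels, labelled cDNA per the study's results text) to Illumina mouse RefSeq arrays. They deposited bead intensities as 1 value per gene and array on a linear scale, for 18138 genes and 832 control entries. No normalization or background subtraction had been applied. The software version of the scanner step is not given in the sources used here. The authors' own comparisons are not in the deposited intensity table. Detection p-values were computed from the 798 negative controls, and the 7395 genes under 0.01 on at least 2 of 16 arrays were tested.

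Background correction against the negative controls, quantile normalization and log2 transformation were done with neqc (offset 16) of limma 3.58.1, run in R 4.3.3. A single linear model held the 8 groups, with empirical Bayes moderation (8 residual and 4.26 prior degrees of freedom), and the call threshold was 0.05 after Benjamini-Hochberg adjustment over the tested genes. No block was used. Bounds compare the brighter group with the lowest signal among probes above background, or with the dim probe where that was brighter. Only groups undetected on both arrays were set this way. A single undetected array kept its value, so results that draw on it are not strict bounds. The number of arrays limits the precision.

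The members and gene lists were chosen with earlier results of these data known. Named list genes are up to 4 per list with the largest absolute interaction at 6 h among those called in any interaction, the FOXO targets that the study names (Klf2, Klf6, Ctla4, Cebpb and Gadd45, read here as Gadd45a, Gadd45b and Gadd45g), and the 3 tested genes most correlated with each member. Some genes that these rules take in are not reported here. Markers, Ccr7 and untested genes named singly were chosen after their values were seen. Alternatives tried were leaving out each array, a chip or replicate block, a fit of the groups compared alone, genes detected on all arrays, no filter, scaling of arrays to a common mean, quantile normalization with no background step, and J5 scores. The fit was tested on simulated data. Tables and plots used Python 3.11.15, numpy 2.4.6, pandas 2.3.3 and matplotlib 3.10.9.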

Additional observations from a re-analysis of the deposited data

Results flagged for a closer look

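In 10 cases among the FOXO genes the response to CD3/CD28 stimulation was not the same with Akti1/2 as without it, by limma's test of the interaction itself. Pik3ip1 was flagged at 2 h (1.74), 6 h (2.53) and 12 h (3.79), and Hbp1 at 2 h (1.07), 6 h (3.40) and 12 h (3.06), all as fitted log2 differences between the changes. Control cells at 6 and 12 h were not above background for Pik3ip1, and set to the dimmest detectable signal they gave 2.38 and 3.18. Irs2 was flagged at 6 h (1.52) and 12 h (2.46), and Sesn3 at 6 h (1.28) and 12 h (1.39). Sesn3 was not above background with Akti1/2 at 0 h, and the same setting gave 0.86 and 0.97. None of these is a strict bound, because single undetected arrays of control cells kept their values. Without background correction the interaction at 6 and 12 h was 1.25 and 2.0 for Pik3ip1, 2.1 and 2.07 for Hbp1, and 0.47 and 0.53 for Sesn3. In each of the 10 the change was more positive with Akti1/2. At 6 and 12 h Hbp1 and Irs2 fell without the inhibitor and rose with it. Pik3ip1 and Sesn3 rose with the inhibitor at all 3 times, and their changes without it did not pass the test. The adjusted p of each stands beside its values above.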

How the results depend on the processing

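Counts of called genes are out of the 8 tested. With only the 5544 genes detected on all 16 arrays, 4 of the 8 remained in the test, and the counts were 2 at 2 h in control cells (from 1), 3 at 2, 6 and 12 h with Akti1/2 (from 6, 5 and 5), 3 between the treatments at 2, 6 and 12 h (from 5 each), and 1, 2 and 2 in the interaction (from 2, 4 and 4). By the J5 score beyond 20, which has no replicate error, 0 genes were called in the comparisons of 2 groups. Quantile normalization without background correction gave 2 at 2 h in control cells. Scaling to the same mean gave 4 at 12 h in control cells (from 2) and 4 in the interaction at 2 h (from 2). Without the filter 3 were called between the treatments at 2 h (from 5), and with only the groups compared 3 at 6 h with Akti1/2 (from 5). No share over all genes stands beside the counts of these alternatives, so they show only how the member counts moved. The causes of these moves were not tested.

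Leaving out each array in turn gave 1 to 2, 2 to 4 and 2 to 2 in control cells at 2, 6 and 12 h, 3 to 6, 3 to 5 and 4 to 6 with Akti1/2, 0 to 0, 2 to 6, 4 to 5 and 4 to 5 between the treatments at 0, 2, 6 and 12 h, and 1 to 3, 3 to 4 and 4 to 5 in the interaction. The lone array of a group was assumed to vary like the others. No direction of a difference printed for a single gene reversed under any alternative.

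Samples with the same replicate number did not deviate together (correlation -0.296 to 0.264, over 0.1 in 7 of 28 pairs of groups). With the replicate number as a block the interaction called 3, 5 and 5 genes at 2, 6 and 12 h, the added ones being Sesn3 at 2 h (adjusted p = 0.0463) and Foxo1 at 6 and 12 h (0.0458 and 0.0439). The other counts equalled those without the block, with 1, 3 and 2 in control cells, 6, 5 and 5 with Akti1/2, and 0, 5, 5 and 5 between the treatments.

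Of 33 list counts of at least 4, 16 stayed within 1.5 times under every alternative. The other FOXO targets higher with Akti1/2 numbered 11 to 16 at 6 h and 12 to 16 at 12 h, and the G1/S genes lower 9 to 14 and 19 to 23. The 6 G1/S genes higher at 2 h became 0 with only the groups compared, and the 5 FOXO regulators lower at 6 h became 1. Genes near background, here Pik3ip1, Ccng2, Sesn3, Rbl2 and, in control cells at 6 h, Hbp1, are limited by the brightness of the negative controls.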
